A study of Mus musculus with 298 samples.

Results

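Adenylyl cyclases are the enzymes that make cyclic AMP (cAMP), and their RNA was followed here, neuron by neuron, in the suprachiasmatic nucleus (SCN), the body clock in the mouse hypothalamus. The members were taken by gene name from the deposited table of read counts: Adcy1, Adcy2, Adcy3, Adcy5, Adcy6, Adcy7, Adcy8 and Adcy9, which are 8 of its 22800 genes. Adcy4 and Adcy10 also had rows and are named below without entering the counts of members. Each sample was the cytoplasm of 1 neuron, drawn into the patch pipette after its firing had been recorded in a slice. The mice were kept under a cycle of 12 h light to 12 h dark. Slices cut near ZT0, lights on, gave the cells called day here, and slices cut near ZT12, lights off, those called night. The sources used here state no strain, sex or age.

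The labels sort each cell by time, by firing (active, silent or depolarized) and by cFOS (cFOS+ or cFOS-). A pair of night silent cells with opposite cFOS labels was nearly identical (r = 0.9995 over genes, against at most 0.696 for any other pair). Their mean entered as a single cell with its cFOS label left blank, so that 297 distinct cells remained. The day active cells were 51 cFOS+ and 27 cFOS-, and the day silent cells 17 cFOS+ and 32 cFOS-. The night active cells were 41 cFOS+ and 46 cFOS-, and the night silent cells 34 of each label and the averaged one. The depolarized cells were 2 cFOS+ and 7 cFOS- by day and 3 cFOS+ and 2 cFOS- at night. Several cells could come from 1 slice, and the labels name neither slice nor animal. Each group therefore counts as 1 sample, no test between groups was possible, and differences are described by their size, by the single cells behind them and by how they fared in subgroups. Fos RNA was 2005 CPM (a gene's reads per 1000000 counted reads) in the cells labelled cFOS+ and 2676 CPM in those labelled cFOS-, so it went against the label, and the label is used below only as a name.

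Depth per cell was 3187057 to 25535298 counted reads (median 6320667). RNA of neurons was present as labelled: Snap25, a synaptic protein gene, was at 10 CPM or more in 97.6% of the 297 cells, and Gad1, which makes the transmitter GABA, in 87.2%. Other neuron genes were found in fewer cells: Tubb3 in 50.8%, Rbfox3 in 25.9% and Slc32a1, the transporter that loads GABA into vesicles, in 20.5%. Microglia RNA was also present: 113 cells had at least 100 CPM summed over 11 microglia markers. Those cells were 43.3% of the day cells and 32.7% of the night cells, 36.97% of the active and 38.1% of the silent cells, and 30.8% of the cFOS+ and 44.6% of the cFOS- cells. Vip RNA moved with the labels too, at 3384 CPM in active against 1142 CPM in silent cells and at 3759 CPM in cFOS+ against 1139 CPM in cFOS- cells, and Avp RNA was 3633 CPM by day against 1211 CPM at night. What part these have in the values below was not tested, except where values without such cells are given.

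The 8 members span the membrane and are switched on by the G protein Gs, and some of them are held down by Gi. They differ in what else moves them: Adcy1, Adcy3 and Adcy8 are stimulated by calcium and calmodulin, Adcy2 and Adcy7 by the beta-gamma subunits of G proteins, Adcy5 and Adcy6 are inhibited by calcium, and Adcy9 is known for its weak response to forskolin. In the SCN, vasoactive intestinal peptide (VIP) and PACAP act through receptors coupled to Gs, and cAMP is known to feed back on clock genes through the factor CREB, which binds the cAMP response element (CRE).

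As given below, Adcy2 and Adcy9 kept their direction between day and night in every subgroup, for Adcy9 on few cells. Adcy1 was past 2-fold with firing in pooled cells, with subgroups on both sides. Promoters are shown for these 3 members, all with a RefSeq entry. Each is the RefSeq window on GRCm38.p6 from 250 bases before to 50 bases after the start of transcription, 5′ to 3′ on the gene's strand. Capitals mark the 6 letters CACGTG, the E-box bound by CLOCK and BMAL1, in Adcy1, and the 5 letters TGACG, the first part of the CRE, in Adcy9.
Adcy2, chr13:68999492-68999791, minus strand: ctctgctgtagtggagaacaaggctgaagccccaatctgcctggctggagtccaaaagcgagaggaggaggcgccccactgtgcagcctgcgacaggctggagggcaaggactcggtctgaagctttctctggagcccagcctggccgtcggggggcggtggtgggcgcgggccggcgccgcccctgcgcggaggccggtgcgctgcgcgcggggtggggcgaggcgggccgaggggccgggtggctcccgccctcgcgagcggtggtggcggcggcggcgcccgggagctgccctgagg
Adcy9, chr16:4420449-4420748, minus strand: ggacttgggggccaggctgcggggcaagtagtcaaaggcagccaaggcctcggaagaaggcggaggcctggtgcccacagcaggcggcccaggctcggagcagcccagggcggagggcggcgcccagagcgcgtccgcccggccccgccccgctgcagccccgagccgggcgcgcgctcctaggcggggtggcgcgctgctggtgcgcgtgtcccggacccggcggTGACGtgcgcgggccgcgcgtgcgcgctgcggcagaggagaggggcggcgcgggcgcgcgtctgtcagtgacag
Adcy1, chr11:7063183-7063482, plus strand: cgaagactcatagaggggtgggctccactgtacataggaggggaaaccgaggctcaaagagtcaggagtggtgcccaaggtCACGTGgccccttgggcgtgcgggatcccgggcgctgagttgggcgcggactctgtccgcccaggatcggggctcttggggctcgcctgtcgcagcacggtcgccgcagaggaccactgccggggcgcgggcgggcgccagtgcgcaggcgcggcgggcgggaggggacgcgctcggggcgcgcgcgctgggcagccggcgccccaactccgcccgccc

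These windows were read on both strands for the E-box, for the first part of the CRE, for the full CRE (TGACGTCA, which always holds that first part) and for the D-box of clock output genes (TTATGTAA). Of 32851 such promoters of the mouse, 7.15% hold the E-box, 20.8% the first part of the CRE, 1.79% the full CRE and 0.938% the D-box. RefSeq entries were found for 6 of the 8 members, as 9 windows. Apart from the letters in capitals, only 1 of 3 windows of Adcy7 held any of the 4 motifs, the first part of the CRE. The Adcy2 window held none of them. G and C made up 78.3% of the Adcy9 window, against a median of 52.7% over all promoters. A match describes letters and says nothing of binding.

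Adcy2 and Adcy3 were the cyclases of most reads and most cells. Per kilobase of the longest transcript, which allows levels of different genes to be compared, the counts summed over the 297 cells gave 34.5 CPM per kb for Adcy2 and 22.1 for Adcy3. Adcy5 and Adcy6 followed with 6.33 and 6.27 CPM per kb, then Adcy7 with 3.18 and Adcy9 with 2.73. Adcy1 had 0.601 and Adcy8 0.395 CPM per kb. These are sums over unlike cells, and the order of Adcy5 and Adcy6 rests on a difference smaller than what 1 cell contributes: the highest cell alone held 9.52% of the summed Adcy5 values and 6.03% of those of Adcy6. Of the family members outside the 8, Adcy4 had 0.0716 CPM per kb and Adcy10, the soluble cyclase, 0.449, both below Adcy1.

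Each cyclase was high in some cells and had no read in others. Adcy2 (chr13:68620043-68999541) had a read in 154 of 297 cells, at least 10 CPM in 119 (40.1%, exact binomial 95% interval 34.4 to 45.9%) and 4357 CPM in its highest cell, while the median cell had 0.157 CPM. Among the cells at 10 CPM or more its quartiles were 102.5 and 484.4 CPM. Adcy3 (chr12:4133103-4213525) had a read in 154 cells and at least 10 CPM in 41.1% (35.4 to 46.9%), with a median of 248.6 CPM among those.

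Adcy6 (chr15:98589973-98610076) reached 10 CPM in 72 cells and Adcy5 (chr16:35154877-35305738) in 64. The others were found in fewer cells: Adcy7 (chr8:88272403-88329962) reached 10 CPM in 31 cells, Adcy9 (chr16:4287529-4420498) in 27, Adcy1 (chr11:7063489-7178506) in 16 and Adcy8 (chr15:64697084-64922296) in 9. All these positions are from GENCODE M21 on GRCm38. Of the 45 cells with any Adcy1 read, 19 had fewer than 5 reads. The scarce members rested on few cells: the 5 highest cells held 88.1% of the summed values of Adcy8, 71.9% of those of Adcy1 and 48.4% of those of Adcy9, against 22.8% for Adcy2 and 16.1% for Adcy3. When every cell was thinned to 4210000 reads, which left out 30 shallower cells, a read was found in 51.7% of cells for Adcy2 and Adcy3 alike, 42.3% for Adcy6, 34.1% for Adcy5, 15.7% for Adcy7, 13.9% for Adcy9, 12.0% for Adcy1 and 4.49% for Adcy8.

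**Figure D1:**
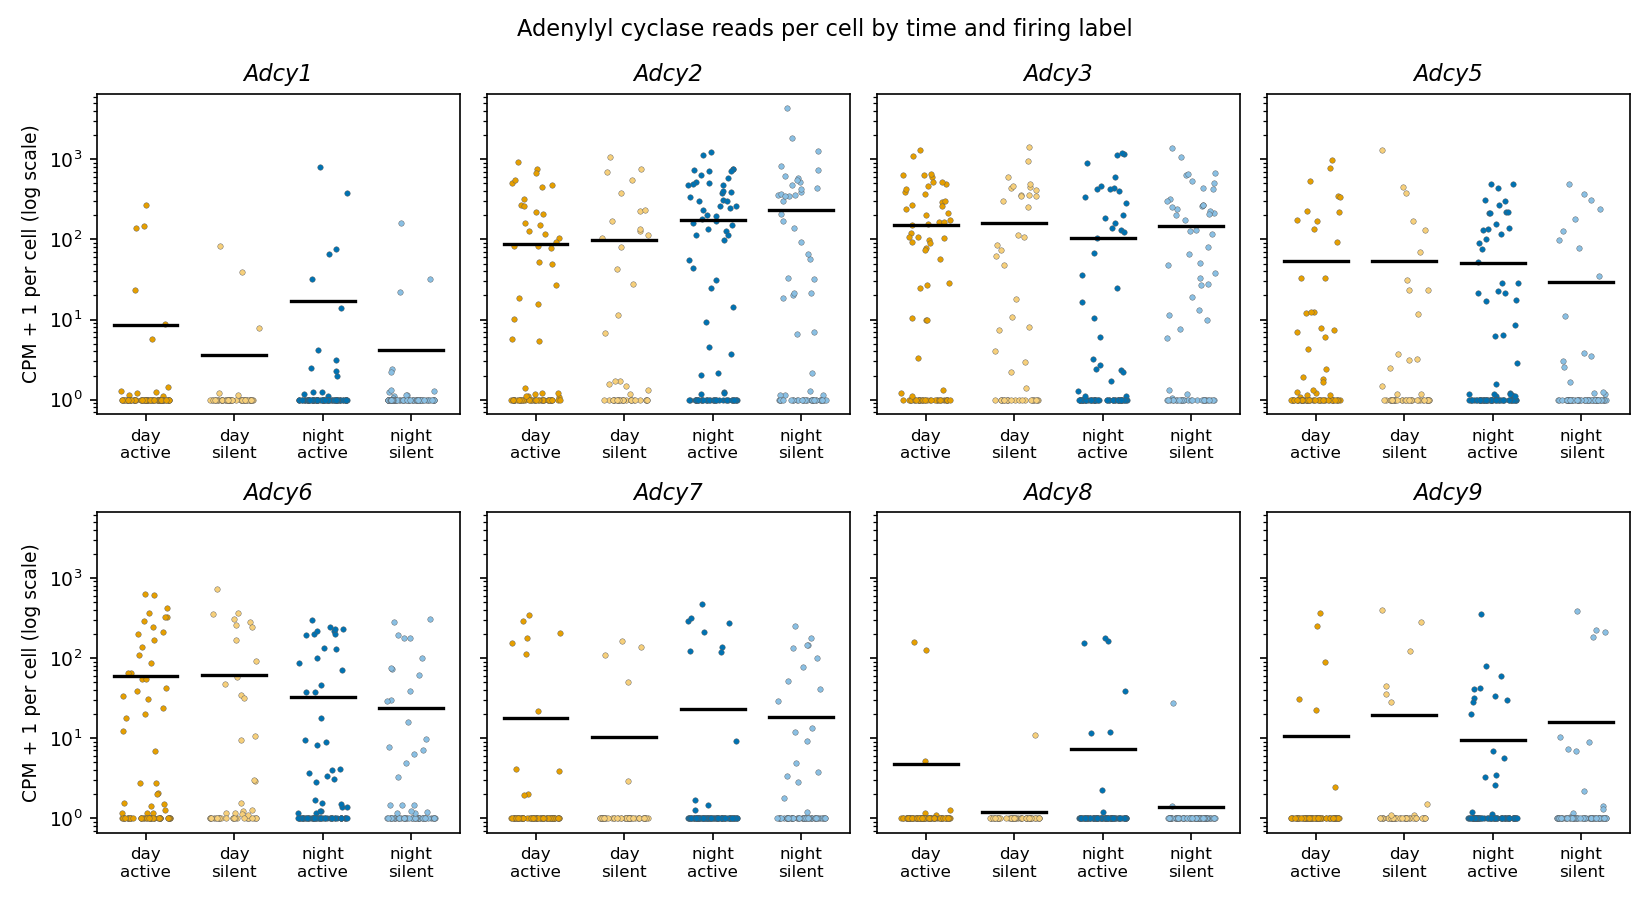
CPM + 1 per cell on a log axis for each cyclase, in cells labelled day active, day silent, night active and night silent (depolarized cells not drawn). Points are cells and black lines are means over cells, which differ slightly from the pooled CPM in the text. In every panel many cells sit at 1, that is at no reads, and single cells reach 4357 CPM in Adcy2 and 812 CPM in Adcy1.

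Adcy3 shares sequence with a neighbour. Its exons overlap those of Cenpo, a kinetochore protein gene on the other strand, over 1380 bases, which are 22.1% of the exon bases of Adcy3. No source used here says whether the counting used strand, so a read in the overlap may count for either gene or for both. Over the 297 cells, log2 (CPM + 1) of the 2 genes correlated with r = 0.848. Of the cells with at least 10 CPM of Adcy3, 113 also had as much of Cenpo and 9 did not, and in 15 of the cells at 10 CPM of Adcy3 the 2 counts were the same to the read. In 63 of these cells Adcy3 had at least 2 times the reads of Cenpo, and in 14 it had fewer. Counting only the reads of Adcy3 beyond those of Cenpo in the same cell leaves 48.7% of its reads, 60.4 CPM over all cells and 89 cells at 10 CPM or more (29.97%, 24.8 to 35.5%). Values of Adcy3 below are given as deposited and, where it matters, in this reduced form. Adcy2 and Adcy6 overlap antisense genes that have no row in the table: Gm35161 covers 4.49% of the exon bases of Adcy2 and Gm29331 8.92% of those of Adcy6.

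**Figure D2:**
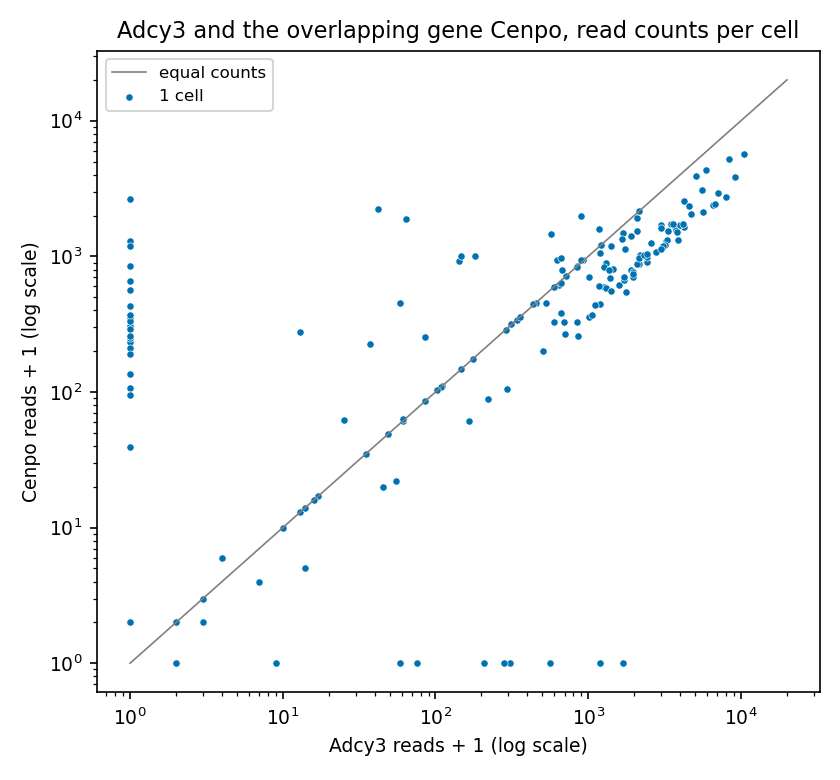
Reads + 1 of Adcy3 (x) and Cenpo (y) per cell, both on log axes. Each point is 1 of the 179 cells with a read of either gene, and the line marks equal counts. A row of cells lies on the line, 28 with the same count above 0, and a cloud of cells with many Adcy3 reads lies below it.

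Between day and night, Adcy6 was the member with the largest difference. This calcium-inhibited cyclase was higher by day by 1.04 on the log2 (CPM + 1) scale, at 55.2 CPM (exact Poisson 95% interval of the summed count 54.7 to 55.7) in 127 day cells against 26.3 CPM (25.9 to 26.6) in 156 night cells. The intervals cover counting error only. By day the cells ran from 0 to 717 CPM with a median of 0 and at night from 0 to 305.8 CPM with a median of 0. The 2 groups overlap over the whole night range. At least 10 CPM was reached by 39 day cells (30.7%) and 31 night cells (19.9%).

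Adcy6 was higher by day in 3 of the 4 subgroups formed by firing and cFOS label, by 1.45, 1.61 and 1.41 on the log2 scale, and not in active cFOS- cells, where it was 29.6 CPM by day and 35.3 CPM at night. Microglia RNA moved with time, with all 11 markers higher by day and none at 0 in either group. Summed per cell they had a median of 55.6 CPM by day (0 to 34382) and 3.11 CPM at night (0 to 31204). In cells under 100 CPM of these markers, depolarized ones included, Adcy6 was 66.02 CPM by day and 23.01 CPM at night. In cells at or above that limit it was 34.2 and 30.5 CPM. Over 13 other ways of computing the ratio the log2 value stayed between 0.85 and 1.53. Without the highest cell of each group it was 0.97, just short of the 2-fold line. Summed astrocyte markers had a median of 278.1 CPM per cell by day and 168.2 CPM at night (9 of 12 higher by day in pooled CPM) and oligodendrocyte markers 115.2 and 23.2 CPM (7 of 11), and their part in the values of Adcy6 and Adcy9 was not tested.

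Adcy2 was lower by day, at 99.3 CPM against 190 CPM at night, and was lower in all 4 subgroups, by 0.56 to 1.34 on the log2 scale. Day cells ran from 0 to 1078 CPM with a median of 0, and night cells from 0 to 4357 CPM with a median of 1.14 CPM. Adcy9, a far scarcer cyclase, went the other way, with 16.6 CPM in day cells against 10.8 CPM in night cells, and was higher by day in all 4 subgroups, by 0.25 to 1.65. These directions rest on few cells. Among active cFOS- cells the highest and next highest had 361.9 and 21.6 CPM by day and 350.7 and 41.1 CPM at night. Among active cFOS+ cells they had 249.7 and 88.75 CPM by day and 79.4 and 58.95 CPM at night. The number of cells with Adcy9 was not higher by day: 11 of 127 day cells and 14 of 156 night cells had at least 10 CPM, and after thinning 10.53% of day cells and 15.7% of night cells kept a read. The day cells with at least 100 CPM of microglia markers held 0.0309 CPM of Adcy9, against 27.2 CPM in the other day cells, depolarized ones included in both. At night the same values were 12.2 and 11.5 CPM.

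Over all genes with at least 5 CPM in one of the 2 groups, 7% were at least 2-fold higher and 7.44% at least 2-fold lower by day, and 13.9% had 1 direction in all 4 subgroups. Of the 7 members that reached 5 CPM, 1 was past 2-fold, Adcy6, and 2 had 1 direction, Adcy2 and Adcy9. Adcy7, stimulated by beta-gamma subunits like Adcy2, came close to the line with 12.5 CPM by day and 25.6 CPM at night, but its log2 ratio ran from -2.30 in the cells with lower numbers in their titles to -0.07 in those with higher numbers. Adcy5 was 48.2 and 41.3 CPM, and its ratio changed sign between those same sets, from -2.46 to 1.28. Adcy3 was 141 and 110 CPM, and 69.03 and 52.65 CPM in its reduced form, beside 83.8 and 66.9 CPM of Cenpo. Adcy1 was 5.99 and 8.23 CPM. Adcy8 had 2.88 and 2.87 CPM and stayed under 5 CPM in both groups, and without the cells rich in microglia RNA its log2 ratio was -2.27.

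With firing, Adcy1 and Adcy8 had the largest ratios. Adcy3, calcium-stimulated like them, was lower in active cells in 3 of the 4 subgroups, at 113 against 139 CPM over all. Its reduced form gave 55.6 against 66.02 CPM, beside 67.4 against 84.2 CPM of Cenpo. Adcy1 was 9.75 CPM in 165 active cells and 3.74 CPM in 118 silent cells, a log2 ratio of 1.18 on the (CPM + 1) scale. Active cells ran from 0 to 812 CPM and silent cells from 0 to 161 CPM, with a median of 0 in both. At least 10 CPM was found in 10 active (6.06%) and 5 silent cells (4.24%). Adcy1 was higher in active cells among day cFOS+ and night cFOS- cells and lower among the other 2 subgroups, and 1 night active cFOS- cell held 33.1% of all Adcy1 values. Without cells rich in microglia RNA the log2 ratio was 0.06.

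Adcy8 was under the 5 CPM minimum and so in no count, but nearly all of it was in active cells. It was 4.78 CPM (4.66 to 4.91) in active cells and 0.230 CPM (0.198 to 0.265) in silent cells. At least 10 CPM was found in 8 of 165 active cells, the highest at 175.5 and 159.7 CPM, and in 1 of 118 silent cells, at 26.2 CPM. It was higher in active cells in all 4 subgroups, with no read in silent cFOS+ cells of either time. By day each active subgroup rested on 1 cell, at 158.1 CPM with the next at 4.13 CPM (cFOS+) and at 126.4 CPM with the next at 0.176 CPM (cFOS-). At night the highest and next highest active cells had 159.7 and 152.8 CPM (cFOS+) and 175.5 and 10.9 CPM (cFOS-). The share of cells with at least 10 CPM was 4.85% (2.12 to 9.33%) of active and 0.847% (0.0215 to 4.63%) of silent cells. Adcy10, outside the 8, went the same way, at 3.74 CPM in active and 1.04 CPM in silent cells and higher in all 4 subgroups. It reached 10 CPM in 12 active and 2 silent cells. No share over all genes as scarce as these was formed. Adcy8 was also higher in cells with astrocyte RNA, a difference that rests on few cells (given with the glial values below). Astrocyte RNA was 605.5 CPM in active and 484.1 CPM in silent cells, with 10 of 12 markers higher in active cells. Its part in the values of Adcy8 was not tested.

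Adcy7 was 24.97 CPM in active and 12.5 CPM in silent cells, but in fewer active cells, 15 of 165 against 16 of 118 at 10 CPM or more. The highest active cell had 476.5 CPM and the highest silent cell 251.8 CPM. Adcy2 was 134.8 and 169.1 CPM, Adcy5 48.4 and 38.9 CPM, Adcy6 40.7 and 37.2 CPM and Adcy9 10.8 and 16.8 CPM in active and silent cells. Without the cells rich in microglia RNA, Adcy5 was past 2-fold, with a log2 ratio of 1.09 in place of 0.31. None of the 7 measured members had 1 direction in all 4 subgroups, where 13.8% of genes did, and Adcy1 was the 1 member past 2-fold, where 7.21% of genes were that much higher and 6.28% that much lower in active cells.

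By cFOS label, Adcy2 had the largest difference among the members at 5 CPM or more. It was 96.5 CPM in 143 cFOS+ cells and 204 CPM in 139 cFOS- cells, lower by a log2 ratio of -1.07 on the (CPM + 1) scale. Cells labelled cFOS+ ran from 0 to 1229 CPM with a median of 0, and cFOS- cells from 0 to 4357 CPM with a median of 0.468 CPM. It was lower in all 4 subgroups, least among night active cells (log2 ratio -0.30) and most among night silent cells (-2.26). At least 10 CPM was found in 34.97% (27.2 to 43.4%) of cFOS+ and 46.04% (37.6 to 54.7%) of cFOS- cells. Over 13 other ways of computing it the log2 ratio stayed between -1.43 and -0.95, the first without the cells rich in microglia RNA. These cells are the same as in the other 2 comparisons, so the 3 sets of values are not independent of each other.

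Of all genes measured, 5.74% were at least 2-fold higher and 8.29% at least 2-fold lower in cFOS+ cells, and 13.2% had 1 direction in all 4 subgroups. Adcy2 was the 1 member of 7 past 2-fold and the 1 with 1 direction. Adcy9 was 17.5 CPM in cFOS+ and 9.34 CPM in cFOS- cells, but it was higher in silent cFOS+ cells at both times (53.6 against 4.51 CPM by day and 26.7 against 0.757 CPM at night) and lower in active ones (7.70 against 22.5 CPM by day and 6.32 against 11.1 CPM at night). Adcy8, under 5 CPM in both groups, was 3.91 and 1.85 CPM, and its log2 ratio of 0.79 ran from -2.11 in the cells with higher numbers to 2.72 in those with lower numbers. Among the remaining members Adcy6 was 45.04 and 33.1 CPM, Adcy3 131 and 116 CPM, Adcy5 40.6 and 48.8 CPM, Adcy7 17.6 and 22.1 CPM, and Adcy1 6.39 and 8.15 CPM. For Adcy3 the reduced form gave 58.8 and 60.6 CPM, which turned its direction.

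**Figure D3:**
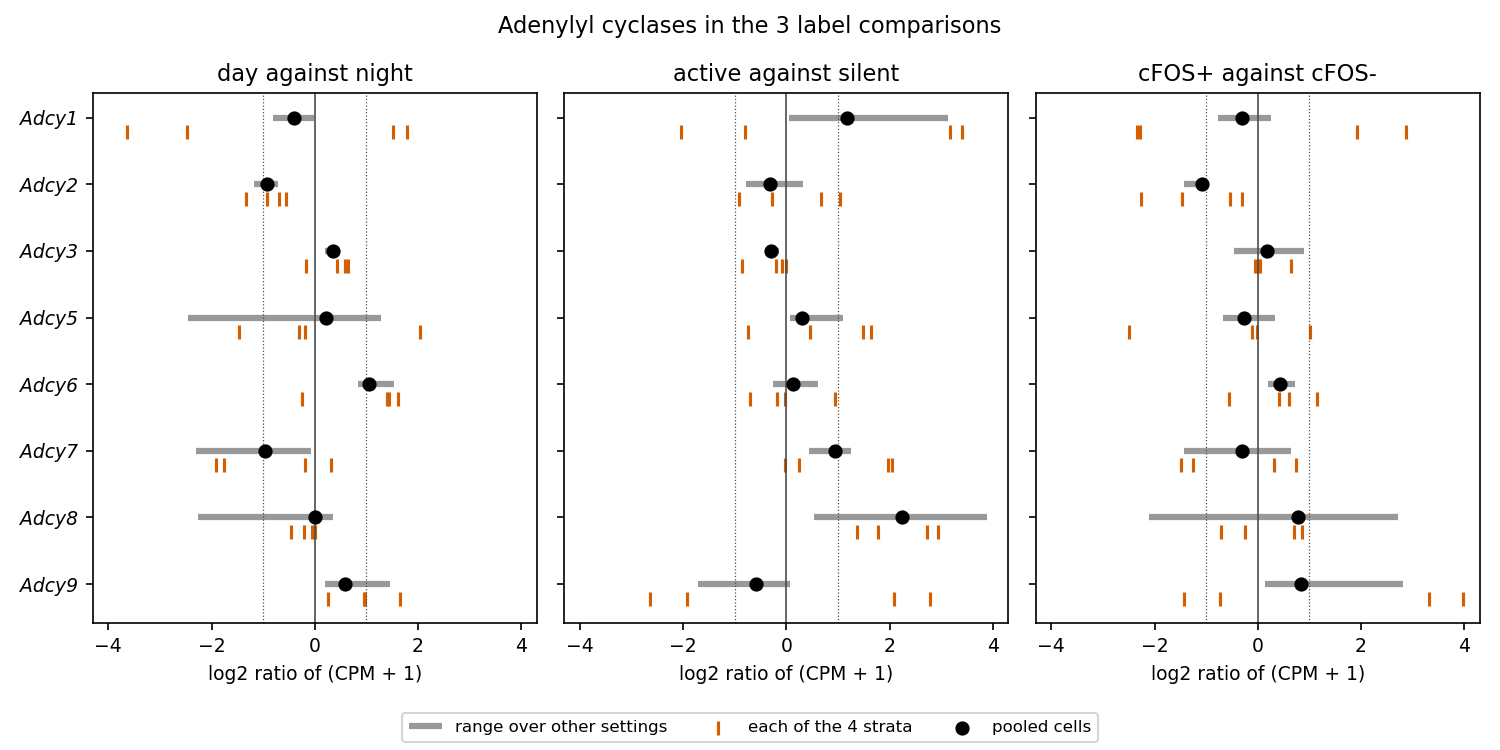
log2 ratios of (CPM + 1) of each cyclase for day against night, active against silent and cFOS+ against cFOS- cells, with dotted lines at 2-fold. Black points are pooled cells, orange ticks the 4 subgroups by the other 2 labels, and grey bars the range over the other settings. Adcy2 lies left of 0 with all its ticks by time and by cFOS label, while the ticks of Adcy1 spread to both sides of 0 in all 3 comparisons.

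Most cells had reads of more than 1 cyclase, but not at 10 CPM or more. After thinning, a cell had reads of 2.26 ± 1.31 members (mean ± SD over the thinned cells), 7.87% of cells had none and 70.04% (exact binomial 95% interval 64.2 to 75.5%) had 2 or more. At 10 CPM or more, over all 297 cells, 18.5% had none, 33.7% had 1 and 47.8% had 2 or more. The mean after thinning was 2.23 by day and 2.28 at night, 2.24 in active and 2.29 in silent cells, and 2.18 in cFOS+ and 2.34 in cFOS- cells. The number went with how many genes a cell showed: in 3 equal sets of cells ordered by detected genes it was 1.63, 2.12 and 3.02.

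Cyclases were found in many combinations. At 10 CPM or more, 55 of the 297 cells had no cyclase and the rest showed 60 combinations. The most frequent of these were Adcy3 alone in 32 cells, Adcy2 alone in 30 and those 2 together in 24. Of the 28 pairs, 23 had an expected number of at least 5 cells from the product of the 2 shares, and in each of these the expected number lay within the Poisson interval of the observed one. This interval is wider than the spread that the fixed numbers of cells with each cyclase allow, so it cannot exclude a partnership. The ratio of observed to expected ran from 0.687 to 1.79 with a median of 1.11, and from 0.656 to 1.34 when the expected number was formed within the 3 sets of detected genes. The highest was Adcy1 with Adcy7, in 9 cells where 5.03 were expected and 7.44 within the sets, followed by Adcy5 with Adcy7, in 22 cells where 14.3 and 17.6 were expected. The largest pair, Adcy2 with Adcy3, shared 74 cells against 71.3 expected, which is 53.6% of the cells of each. Correlations of log2 (CPM + 1) between members over the 297 cells ran from r = -0.07 to 0.12.

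**Figure D4:**
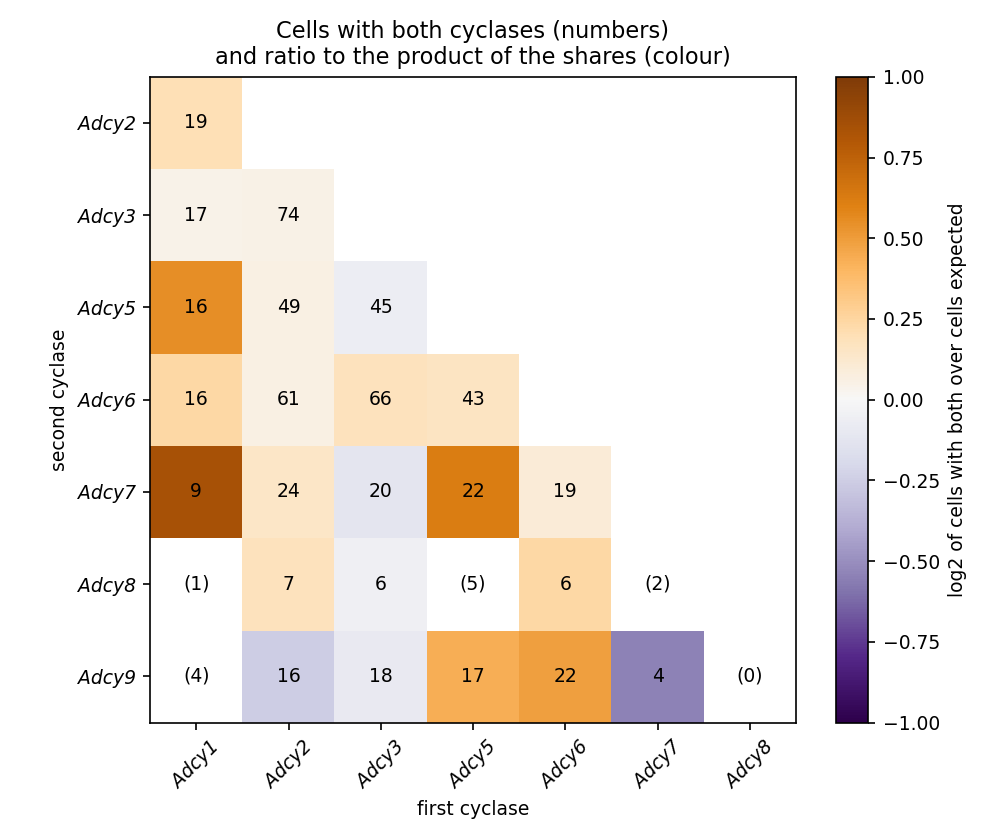
Numbers of thinned cells with a read of both cyclases, for the 28 pairs. Colour gives the log2 ratio to the number expected from the product of the shares, and pairs with fewer than 5 cells expected are left white with the number in brackets. The darkest orange is Adcy1 with Adcy7 and the darkest violet Adcy7 with Adcy9, with 9 and 4 cells.

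By mode of control, 45.5% of cells had at least 10 CPM of a calcium-stimulated cyclase (Adcy1, Adcy3 or Adcy8), 46.5% of one stimulated by beta-gamma subunits (Adcy2 or Adcy7) and 40.1% of one inhibited by calcium (Adcy5 or Adcy6). The first share rests largely on Adcy3. All 3 modes met in 32 cells (10.8%), 2 in 92 (30.98%), 1 in 112 (37.7%) and none in 61 (20.5%).

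The member with the highest level per kilobase in a cell is called its leader, so every cell with a cyclase has 1. In the cells with any cyclase at 10 CPM or more, the leader made up a median of 86.7% of the summed level per kilobase. Among the cells with any cyclase at 10 CPM or more, Adcy2 led per kilobase in 34.3% (28.3 to 40.6%), Adcy3 in 31.4%, Adcy6 in 12.0%, Adcy5 in 10.3%, Adcy7 in 5.79%, Adcy9 in 4.13%, Adcy1 in 1.24% and Adcy8 in 0.826%. In 46.7% of these cells the leader made up more than 90% of the summed level per kilobase. By night Adcy2 led 45.7% of active and 39.3% of silent cells, against 22.95% and 24.4% by day. By day Adcy3 led 24 of 61 active and 16 of 41 silent cells, and at night 14 of 70 active and 19 of 61 silent cells. With only the Adcy3 reads beyond Cenpo, Adcy2 led in 38.8% and Adcy3 in 20.3%. The summed level of the 8 members had a median of 52.9 CPM per kb in day cells and 54.4 in night cells, of 53.9 in active and 53.0 in silent cells, and ran from 0 to 1035 over all cells.

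The cyclase that divided the cells by peptide was Adcy7. Cells were sorted by their own peptide RNA into 55 with at least 100 CPM of Vip, 95 others with at least 100 CPM of Avp (vasopressin) and 147 with neither. Adcy7 was 36.8 CPM in the cells with neither, 4.23 CPM in the Vip cells and 0.0552 CPM in the Avp cells. None of the 95 Avp cells reached 10 CPM of it, which allows a share of up to 3.16% by a limit of 3 cells and 3.81% by the exact binomial interval, and their highest values were 2.80 and 1.90 CPM. In the cells with neither peptide, 29 of 147 did (19.7%, 13.6 to 27.1%), the highest at 476.5 and 339.6 CPM. In the Vip cells 2 of 55 did, at 135.8 and 28.3 CPM. With the peptide limit at 1000 CPM, none of 44 Vip cells reached 10 CPM of Adcy7, which was 0.0111 CPM in them and 31.6 CPM in the cells with neither. The classes include depolarized cells, and 14 cells lay within 2-fold of the Avp limit and 2 within 2-fold of the Vip limit.

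Between Avp cells and cells with neither, the log2 ratio of Adcy7 was -5.16, and of 11987 genes with at least 5 CPM in either class 16 had a ratio this low or lower, itself among them. Of all these genes 15.2% were at least 2-fold lower and 10.5% at least 2-fold higher in Avp cells. Adcy7 kept this side at both times, with 0.0339 against 26.1 CPM by day and 0.0790 against 44.5 CPM at night. It kept it in active cells (0.0217 against 48.5 CPM) and in silent cells (0.0958 against 24.02 CPM), and with the peptide limit set at 10 or at 1000 CPM, with no Avp cell at 10 CPM of Adcy7 in either. Without the cells rich in microglia RNA, which were 30.5% of Avp cells and 44.2% of the cells with neither, it was 0.0762 and 41.5 CPM. Avp cells also showed fewer genes, with a median of 4247 against 4841. Within the 3 sets of cells by detected genes, 0 of 39, 0 of 31 and 0 of 20 Avp cells reached 10 CPM of Adcy7, against 3 of 37, 8 of 39 and 17 of 54 cells with neither.

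**Figure D5:**
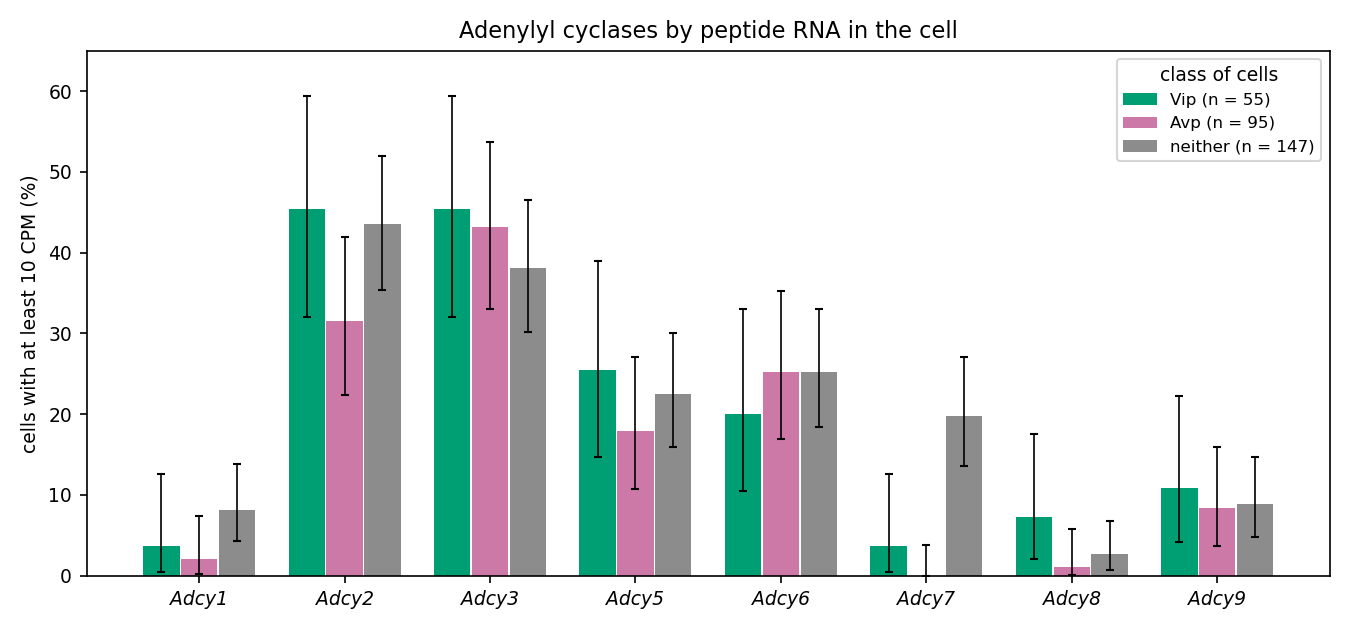
Percent of cells with at least 10 CPM of each cyclase in Vip, Avp and neither cells, as bars with exact binomial 95% intervals (which treat cells as independent draws). Adcy7 is at 0 of 95 Avp cells and 29 of 147 cells with neither peptide, and no other member is at 0 in any class.

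Between Vip cells and cells with neither, the log2 ratio of Adcy7 was -2.86. It was -5.01 with the peptide limit at 1000 CPM, -4.16 without the highest cell of each class and -5.20 without the cells rich in microglia RNA, and ran from -6.03 to -1.50 within the 3 sets by detected genes. The other members divided the peptide classes less. Adcy9 was 27.95 CPM in Vip cells and 7.96 CPM in the cells with neither, past 2-fold where 8.94% of genes were that much higher and 18.3% that much lower, yet 10.9% and 8.84% of the cells reached 10 CPM. Adcy5 was 64.9 CPM in Avp cells, with single cells at 1306 and 967 CPM, and 30.4 CPM in the cells with neither; the share at 10 CPM was 17.9% and 22.4%, and in the cells with the most detected genes the ratio turned to -0.15 on the log2 scale. Adcy3, as deposited and not in its reduced form, was 176.6 CPM in Vip, 141.7 CPM in Avp and 93.6 CPM in neither cells. Adcy2 was 122.4, 130.9 and 163.1 CPM and Adcy6 23.6, 45.5 and 37.8 CPM in the same order. Adcy1 was 4.26, 6.63 and 8.97 CPM and Adcy8 6.32, 0.883 and 2.75 CPM, each resting on a few cells. Astrocyte RNA was 835.2 CPM in Vip cells and 432.3 CPM in the cells with neither, with 11 of 12 markers higher in Vip cells, and its part in the values of Adcy8 and Adcy9 was not tested. Microglia RNA was 739.2 CPM in Avp cells and 1254 CPM in the cells with neither.

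Glial RNA went with some members and not with others. Adcy2 was 144.3 CPM in cells with at least 100 CPM of microglia markers and 145.9 CPM in the others, and Adcy7, which microglia are known to express, 18.9 CPM in both. Of the 23626 Adcy7 reads in the cells without microglia RNA, 9566 were from 1 cell; without the highest cell of each kind Adcy7 was 16.3 and 11.4 CPM, and 13.3% of cells with microglia RNA and 8.70% of those without reached 10 CPM of it. Adcy9 was lower in cells rich in glial RNA: 6.09 against 18.2 CPM for microglia, 3.75 against 26.1 CPM for astrocyte and 8.16 against 17.98 CPM for oligodendrocyte markers. Adcy8 was higher in cells with astrocyte RNA, at 4.27 against 0.820 CPM, and Adcy5 lower in cells with oligodendrocyte RNA, at 31.96 against 54.5 CPM. The values of Adcy8 and Adcy9 rest on few cells, with 10 CPM reached in 9 and 27 of the 297 cells. Their 5 highest cells held 88.1% and 48.4% of the summed values. No value without the highest cells and no share over all genes is given beside them.

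Few genes followed a cyclase from cell to cell. Among the 9941 genes compared, each with a thinned read in at least 10% of cells, the overlapping Cenpo was the one most like Adcy3. Next came the companions of Adcy7: Lynx1 (r = 0.44), which encodes a modulator of nicotinic receptors, Hapln4 (r = 0.40), a link protein of perineuronal matrix, and Cnr1 (r = 0.39), the cannabinoid receptor, each over 297 cells and all sharing their libraries. Adcy7 and Lynx1 were both at 10 CPM or more in 15 cells, of 31 with Adcy7 and 29 with Lynx1. The r was 0.36 by day and 0.49 at night for Lynx1, 0.42 and 0.41 for Hapln4 and 0.36 and 0.40 for Cnr1. The day and night cells are parts of the cells by which these genes were picked, so this agreement is in part by choice. For the remaining members the 3 genes most alike had r from 0.23 to 0.35, led by Epb4.1l4b for Adcy1, Snx21 for Adcy2, Zfp12 for Adcy5, Apc for Adcy6, Aph1c for Adcy8 and Mrps30 for Adcy9. In counts this sparse such values describe little. The companions of Adcy7 are sparse too, with Hapln4 at 10 CPM in 39 cells and Cnr1 in 35. In the 3 sets of cells by detected genes, 4.49%, 12.4% and 30.3% had a thinned Adcy7 read, and the part of this in r was not tested.

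Other genes of the cAMP pathway were read from a list of 62 that runs from G proteins and receptors to protein kinase A and its targets, of which 61 had a row. Between day and night 52 reached 5 CPM in 1 group; 4 were at least 2-fold higher and 4 at least 2-fold lower by day, and the median log2 ratio was 0.04, against -0.03 over all genes. With firing the counts were 4 higher and 3 lower of 53, with a median of -0.02 against 0.01. By cFOS label they were 1 higher and 5 lower of 52, with a median of -0.04 for the list and for all genes. The share past 2-fold thus lay near that of all genes in each comparison.

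Up to 4 genes of this list are named per comparison, those of the largest ratio that met a rule. The rule asked for 1 direction whether cells were pooled or averaged, without the top cells and in the share of cells with a read. Their agreement across these measures is thus by choice. By day Calcr, the calcitonin receptor, was 156.7 against 71.5 CPM at night, Crem, a repressor and activator at the CRE, 70.9 against 44.6 CPM, Pkia, an inhibitor of protein kinase A, 82.6 against 138 CPM, and Crtc3, a coactivator of CREB, 17.7 against 29.2 CPM. In active cells Npy1r, a receptor coupled to Gi, was 30.6 against 5.19 CPM in silent cells, Atf1, a factor of the CREB family, 50.9 against 18.3 CPM, Crem 70.6 against 36.7 CPM, and Pkia 75.1 against 165.8 CPM. In cFOS+ cells Vipr2, the VIP receptor coupled to Gs, was 158 against 306.2 CPM in cFOS- cells, Prokr2, the prokineticin receptor, 130 against 282.9 CPM, Creb1 14.1 against 39.4 CPM, and Calcr 87.6 against 133 CPM. Npy1r, Atf1, Vipr2, Prokr2, Creb1 and Pkia kept these directions in all 4 subgroups, and so did Crtc3 between day and night. Over all genes 13.9% had 1 direction in all 4 subgroups by time, 13.8% by firing and 13.2% by cFOS label. For Npy1r the share of cells with a thinned read hardly differed, at 10.1% of active and 9.52% of silent cells.

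The 14 depolarized cells were few in each group. Adcy2 was 147.7 and 151.6 CPM in the 2 day cFOS+ cells. In the 7 day cFOS- cells it was 0 in 3, 0.160, 0.523, 84.8 and 102.5 CPM. At night it was 0, 2.72 and 245.7 CPM in the cFOS+ cells and 0 in both cFOS- cells. Adcy3 was 266.1, 499.4 and 749.1 CPM in 3 of the 7 day cFOS- cells, 0.174 CPM in 1 and 0 in the others. Adcy7 was 0 in all of these 14 cells but 1 day cFOS- cell, at 0.174 CPM. Adcy9 was 217.5 and 16.9 CPM in 2 of the 3 night cFOS+ cells and 5.90 CPM in 1 day cFOS- cell, and 0 in the remaining 11.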

How the data were processed

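RNA of single patched neurons was sequenced, and the authors deposited a table of read counts per gene with 1 column per cell. They also deposited a table of normalized signal, which was found to be those counts divided by 1 factor per cell and served only as an alternative. Per the submitters' processing notes, STAR, DESeq2 and GRCm38.p4 were used, without saying for which step; versions and use of strand are unknown here.

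Counts were turned into CPM per cell. Groups were compared by pooled CPM, the summed count over the summed total, with exact Poisson intervals, and shares of cells with exact Clopper-Pearson intervals, both at 95% and for counting error only; intervals of shares take cells as independent draws, although cells may share a slice. Ratios used log2 (CPM + 1) and genes of at least 5 CPM in 1 group; 2-fold was the line for a count. Depth was equalised by thinning each cell to 4210000 reads, with shallower cells left out. No test was run, since no label gives animals. Counting routines were tested on simulated data. The members and lists were chosen with earlier results of these data known. The text names the 8 members, Adcy4 and Adcy10, the 3 genes of highest Pearson r per member (no predicted genes), and up to 4 pathway genes per comparison: those of the largest ratio with at least 20 CPM in a group and 1 direction in the pooled value, mean over cells, value without top cells and thinned share. Alternatives covered the pseudocount, the minimum level, means over cells, top cells, microglia RNA, cell numbers, depolarized cells and the normalized table. The Adcy3 reads beyond Cenpo, the microglia split without top cells, and the peptide classes without top cells, without microglia RNA and by detected genes, were chosen after seeing the data. Python 3.11.15, numpy 2.4.6, pandas 2.3.3, scipy 1.17.1 and matplotlib 3.10.9 were used, with gene models of GENCODE M21.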

Additional observations from a re-analysis of the deposited data

Results flagged for a closer look

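In the 7 day depolarized cFOS- cells, 4 members had 1 cell far from the others. Adcy6 was 43.25 CPM in 1 cell and at most 6.71 CPM in the other 6. Single cells had 0.1743 CPM of Adcy7, 0.2930 CPM of Adcy8 and 5.896 CPM of Adcy9, with no read of that gene in the remaining cells. The Adcy7 and Adcy8 values stand for very few reads. Chance flags about 1 in 20 groups this way, and groups in which most cells are at 0 are flagged by any single cell with a read.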

How the results depend on the processing

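The number of the 7 measured members past 2-fold rested on the settings. Between day and night it was 1 (Adcy6) as reported. It was 0 with the highest cell of each group left out and with a pseudocount of 10. It was 2 for means over cells, for the deposited normalized values, for cells of lower numbers, for cells of higher numbers, with a pseudocount of 0.1 and with depolarized cells included, and 3 without cells with microglia RNA. For firing it was 1 (Adcy1), 0 with a pseudocount of 10, and 2 for means over cells, for lower numbers, for higher numbers and with no minimum level. The 1 member was Adcy5 without cells with microglia RNA and Adcy7 for the mean of the 4 subgroups. For the cFOS label it was 1 (Adcy2), 0 with depolarized cells included, 1 but another (Adcy8) for lower numbers, 2 for means over cells, for the mean of the 4 subgroups and for the normalized values, and 3 without top cells and for higher numbers. The share of cells with 2 or more cyclases was 59.6% at 5 reads and 47.8% at 10 CPM. Adcy5 between Avp and neither cells turned to -0.153 in the cells with the most detected genes. The cause of these moves was not tested. Of 32 alternative values for shares of cells, 28 stayed within the interval of the reported one, as did 115 of 119 for pairs. Of the alternative log2 ratios by label, 62.5% moved beyond the counting interval of the reported value, as did 109 of 112 by peptide class. No paired analysis was possible because the numbers in the labels name single cells and no result comes from a test.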
